A study of Mus musculus with 2 samples.

Results

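The genes of mitochondrial protein import were examined in adipose tissue macrophages (ATM), the macrophages of fat. Members were taken by gene symbol from the deposited expression table. All symbols starting with Timm or Tomm and all Chchd symbols followed by a number were taken, together with Samm50, Mtx1, Mtx2, Pam16, Dnajc19, Grpel1, Pmpca and Pmpcb. This gave 42 of the 20330 genes in the table. The name rule also takes a few genes whose known role lies outside import, such as Timmdc1 and most Chchd genes, and these are pointed out below.

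ATM were sorted by flow cytometry for F4/80 and CD11b from visceral fat of C57BL/6 mice that had 12 weeks of high-fat diet, begun at 4 weeks of age per the study's methods. The KO mice were hMRP8cre+;Hif-1αfl/fl;ApoE-/- and the WT mice were hMRP8cre-;Hif-1αfl/fl;ApoE-/-. Both genotypes therefore lacked ApoE and carried the floxed Hif1a alleles, and only the KO mice carried Cre recombinase, which the human MRP8 promoter drives in cells of the myeloid lineage. There was 1 poly(A) RNA library of each genotype, and the number of animals behind it is not given in the sources used here. No difference below has a replicate check, and no test was possible.

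Nearly all mitochondrial proteins are made in the cytosol and must be imported. The TOM complex of the outer membrane is the common entry gate. From there, the SAM complex builds barrel-shaped proteins into the outer membrane, and small TIM chaperones carry hydrophobic proteins across the space between the membranes. In the inner membrane the TIM22 complex inserts carrier proteins and the TIM23 complex passes proteins with a cleavable presequence, which a motor pulls into the matrix and a protease then trims. The oxidoreductase encoded by Chchd4 traps small cysteine-rich proteins in the intermembrane space, among them the small TIM chaperones and other CHCHD proteins.

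Values are FPKM, a fragment count scaled to transcript length and to library size. The FPKM sums over all genes were close, at 585823 for WT and 568329 for KO. From the smallest step between low values, depth was estimated as 5950000 fragments for WT and 7470000 for KO. Hif1a, the targeted gene, was at 30.4 FPKM in WT against 20.97 in KO, a value that covers the whole gene and not only the floxed part. Of the macrophage markers, Adgre1, which encodes F4/80, was at 299.0 and 238.7 FPKM, Itgam, which encodes CD11b, at 127.9 and 127.7, Csf1r at 615.2 and 718.7, and Lyz2 at 3936 and 4080. The other 2 differed more and in opposite directions, Fcgr1 at 49.3 and 21.9 FPKM and Mertk at 38.01 and 88.1. Neutrophil markers differed between the libraries. Of the 6 such markers in the table, 4 were above 0 in a library and all 4 had more in KO, with a summed level of 137.1 FPKM in WT against 488.8 in KO, while Camp and Ltf were listed at 0 in both. The 4 fibroblast markers also all had more in KO, at a summed 43.1 FPKM in WT against 79.2 in KO. The adipocyte markers summed to 22.6 FPKM in WT and 21.7 in KO, most of it Lipe at 16.8 and 20.1. Cidec was at 5.83 and 0, Lep at 0 and 1.60, and Adipoq, Cidea and Plin1 were listed at 0 in both. The endothelial markers summed to 17.3 and 16.03, with 3 of 4 having more in KO and Tie1 at 4.12 and 0. The B cell markers summed to 2.75 and 0.939, with 2 of 3 having more in KO and Cd79a at 2.5 and 0.222. The T cell markers Cd3d, Cd3e, Cd3g and Cd8a were listed at 0 in both. The part of such other cells in the values below was not tested.

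It was first asked how the import genes as a whole compared between the libraries. Of the 42 genes, 36 reached 1 FPKM in WT, in KO or in both, and 6 were listed at 0 in both. The change of a gene is given as log2(FPKM + 1), KO minus WT, and "higher" and "lower" are used for a difference of 3-fold or more on this scale. In KO, 7 import genes were higher and 8 were lower. Among all 10297 genes past the same filter, 13.6% were higher and 13.7% were lower, or 27.3% together, against 19.4% and 22.2% of the import genes. The median change of the import genes was -0.17, beside 0.03 for all genes, and 18 lay above 0 and 18 below. The median absolute change was 1.40 for import genes and 0.87 for all genes. The import genes thus lay on both sides of 0, and the sign of their median depended on which genes and scale were used, from -0.48 for the log2 FPKM ratio of the 32 genes above 0 in both libraries to 0.11 without the genes that have a pseudogene copy. In bulk RNA of this kind, fewer cells of a type and less RNA per cell cannot be told apart.

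The promoters of the 4 import genes with the largest change among those above 1 FPKM in both libraries are shown. They were chosen for display because Hif1a encodes a subunit of the transcription factor HIF-1, for which ACGTG is a known form of the DNA core. Other forms of the core, such as GCGTG, were not searched. The sequences are from RefSeq on GRCm38.p6, not the mm9 build of the deposited values, and run from 250 bases before to 50 after the start of the gene. ACGTG was searched on both strands and is set in capitals.
Chchd1 (chr14:20702777-20703076, plus strand): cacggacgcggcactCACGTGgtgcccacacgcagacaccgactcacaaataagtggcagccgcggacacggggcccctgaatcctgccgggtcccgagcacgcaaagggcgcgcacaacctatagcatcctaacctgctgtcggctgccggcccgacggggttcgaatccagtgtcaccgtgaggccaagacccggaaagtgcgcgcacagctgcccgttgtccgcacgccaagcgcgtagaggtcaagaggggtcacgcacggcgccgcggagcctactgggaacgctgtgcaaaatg
Timm8b (chr9:50603651-50603950, plus strand): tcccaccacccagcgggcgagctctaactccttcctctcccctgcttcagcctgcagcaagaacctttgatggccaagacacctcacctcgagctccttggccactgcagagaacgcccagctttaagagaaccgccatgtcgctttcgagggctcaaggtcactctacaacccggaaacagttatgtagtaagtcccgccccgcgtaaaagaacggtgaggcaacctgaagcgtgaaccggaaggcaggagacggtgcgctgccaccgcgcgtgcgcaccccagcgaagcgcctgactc
Timm23 (chr14:32201842-32202141, minus strand): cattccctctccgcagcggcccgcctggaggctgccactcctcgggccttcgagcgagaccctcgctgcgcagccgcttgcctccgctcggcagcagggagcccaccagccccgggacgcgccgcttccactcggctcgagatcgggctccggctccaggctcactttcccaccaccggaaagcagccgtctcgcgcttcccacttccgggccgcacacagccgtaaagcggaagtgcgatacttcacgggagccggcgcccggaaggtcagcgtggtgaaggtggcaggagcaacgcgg
Dnajc19 (chr3:34081305-34081604, minus strand): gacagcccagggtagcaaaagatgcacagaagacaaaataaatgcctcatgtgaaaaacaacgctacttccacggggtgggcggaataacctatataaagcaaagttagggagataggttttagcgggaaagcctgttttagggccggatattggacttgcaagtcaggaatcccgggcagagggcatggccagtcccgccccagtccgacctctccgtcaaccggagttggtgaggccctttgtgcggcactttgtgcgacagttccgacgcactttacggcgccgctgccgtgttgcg
Chchd1, lower in KO, held the letters CACGTG, which reads as ACGTG on each strand and is also the E-box that other factors bind, and the matches began at positions -235 and -234 from the start of the gene. The windows of Timm8b, Timm23 and Dnajc19 held no ACGTG. Windows were found for 37 of the 42 members. Of the 39 member windows, 25.6% held ACGTG, beside 19.6% of all 32851 windows of this length. It was in 2 of 8 windows of higher genes, 1 of 8 windows of lower genes and 5 of 19 windows of genes within 3-fold, the other windows being of members listed at 0. A match is only a description of the letters, and its absence says nothing about the factor.

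**Figure D1:**
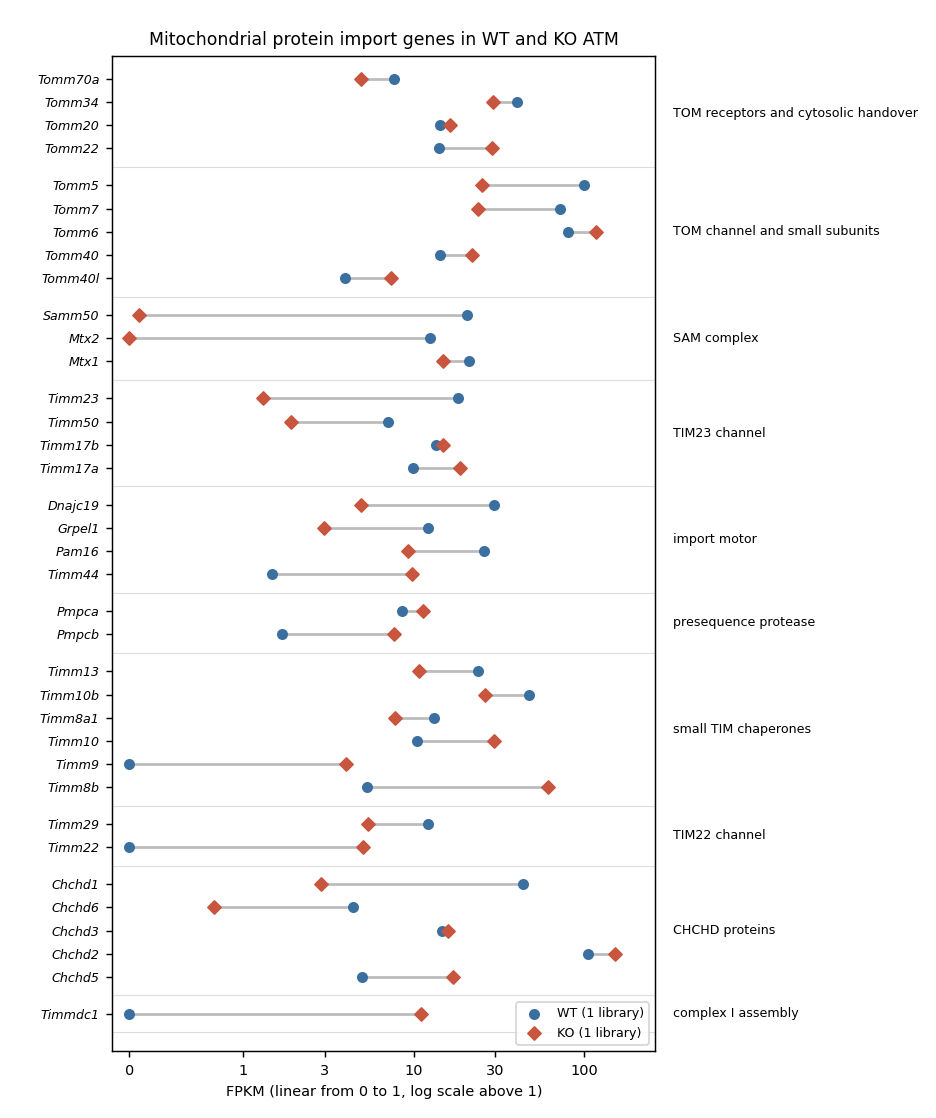
FPKM of the 36 import genes past the filter in the WT library (circles) and the KO library (diamonds), on an axis that is linear up to 1 and logarithmic above, grouped by the role of the product. All 3 SAM complex genes lay below their WT value in KO and both presequence protease genes lay above it, while the TOM, TIM23, motor, small TIM, TIM22 and CHCHD groups held genes on both sides.

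The levels of single genes spanned a wide range within each library. In WT the highest import gene was Chchd2 at 105.5 FPKM, followed by Tomm5 at 99.8, Tomm6 at 79.9, Tomm7 at 72.0 and Timm10b at 47.4. In KO the order was Chchd2 at 152.0 FPKM, Tomm6 at 116.5, Timm8b at 60.8, Timm10 at 29.4 and Tomm34 at 29.3. Chchd2 and Tomm6 kept their place near the top, whereas Tomm5 and Tomm7 did not. The summed level of all import genes was 813.3 FPKM in WT against 720.4 in KO. Over the 36 genes past the filter the median level was 13.3 FPKM in WT against 10.9 in KO, beside 9.14 and 9.31 for all genes past the filter.

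The receptors of the TOM complex, which recognise proteins at the mitochondrial surface, showed no 3-fold difference. Tomm20, the receptor for presequences, was at 14.3 FPKM in WT against 16.2 in KO. Tomm22, the central receptor that holds the complex together, was at 14.1 FPKM in WT against 28.7 in KO, a change of 0.98. Tomm70a, the receptor for carrier proteins, was at 7.64 FPKM in WT against 4.89 in KO. Tomm34, a cytosolic co-chaperone that hands over precursors, was at 40.04 and 29.3 FPKM. The median of these 4 genes was -0.13, and the fifth, Tomm20l, was listed at 0 in both libraries.

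The channel and the small subunits of TOM differed among themselves. Tomm40, the pore itself, was at 14.3 FPKM in WT against 22.05 in KO, and its paralog Tomm40l was at 3.97 and 7.36. The small subunits Tomm5, Tomm6 and Tomm7 steady and assemble the pore and were among the highest import genes in WT. Tomm5 was lower in KO, at 99.8 FPKM in WT against 25.1 in KO, a change of -1.95. Tomm7 was at 72.0 FPKM in WT against 23.7 in KO, a change of -1.56, just within 3-fold on the log2(FPKM + 1) scale although its FPKM ratio was 3.04. Tomm6 lay the other way, at 79.9 FPKM in WT against 116.5 in KO, a change of 0.54. Tomm5 and Tomm7 thus lay below 0 while Tomm6 and the pore lay above it. About 391 and 123 fragments stood behind the Tomm5 values, and 482 and 199 behind those of Tomm7. At a mean level of 50 to 100 FPKM, where Tomm5 lies, 3.9% of all genes were lower in KO and 1.05% were higher.

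All members of the SAM complex lay below 0. Samm50, the barrel that inserts other barrel proteins and also anchors the cristae-forming MICOS complex, was at 20.5 FPKM in WT against 0.085 in KO, a change of -4.31. The KO value rested on an estimated 2.94 fragments against 565 in WT. Mtx2, a SAM subunit on the cytosolic face, was at 12.4 FPKM in WT, an estimated 218 fragments, and was listed at 0 in KO. Mtx1, its partner, was at 21.1 FPKM in WT against 14.8 in KO, a change of -0.48 that is within 3-fold. The group's summed level was 54.04 FPKM in WT against 14.9 in KO. Mtx3, a further metaxin that the name rule does not take, was low in both libraries, at 1.34 and 0.0823 FPKM. A value of 0 or near 0 in this table may be a failed estimate, which was not tested. The import oxidoreductase gene Chchd4 is also listed at 0, in both libraries. Of all genes past the filter, 7.86% were listed at 0 in KO and 9.26% in WT, and of the 36 import genes 1 and 3 were.

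The TIM23 channel was split. Timm23, the channel-forming subunit, was at 18.2 FPKM in WT against 1.30 in KO, a change of -3.06 from about 84.3 and 7.55 fragments. Timm50, the receptor that takes proteins over from TOM, was at 7.04 FPKM in WT against 1.92 in KO, a change of -1.46, within 3-fold on this scale but past it with a pseudocount of 0.1, at -1.82. The paralogs Timm17a and Timm17b, which form the channel with Timm23, did not follow it. Timm17a was at 9.84 FPKM in WT against 18.7 in KO, and Timm17b was at 13.5 and 14.8. Timm21, which links the channel to the respiratory chain, was listed at 0 in both. The median of the 4 genes past the filter was -0.67 and became 0.12 under a minimum mean of 5 FPKM, which leaves out Timm50.

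Among the motor genes, 3 lay below 0 and 1 above. Dnajc19, a J-protein that stimulates the motor's Hsp70, was lower in KO, at 29.5 FPKM in WT against 4.94 in KO, a change of -2.36. Pam16, the J-like regulator of the motor, was at 25.9 FPKM in WT against 9.29 in KO, a change of -1.39 and within 3-fold. Grpel1, the exchange factor that lets the Hsp70 release ADP, was lower at 12.2 FPKM in WT against 2.99 in KO, a change of -1.72. Timm44, which tethers the motor to the channel, was the exception and was higher in KO, at 1.48 FPKM in WT against 9.81 in KO, a change of 2.12. The Hsp70 itself, Hspa9, was nearly the same in both libraries at 33.7 and 32.2 FPKM. The summed level of the 4 motor genes was 69.03 FPKM in WT against 27.02 in KO, with a median change of -1.55. Of all genes, 32.4% were past 3-fold in either direction at a mean of 5 to 10 FPKM, where Grpel1 and Timm44 lie, and 20.6% at 10 to 20 FPKM, where Dnajc19 lies.

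Both subunits of the presequence protease lay above 0. Pmpca, the subunit that binds presequences, was at 8.55 FPKM in WT against 11.3 in KO, a change of 0.36. Pmpcb, the catalytic subunit, was higher, at 1.68 FPKM in WT against 7.71 in KO, a change of 1.70. In WT an estimated 12.1 fragments stood behind Pmpcb. At its mean level of 1 to 5 FPKM, 27.7% of all genes were higher in KO.

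**Figure D2:**
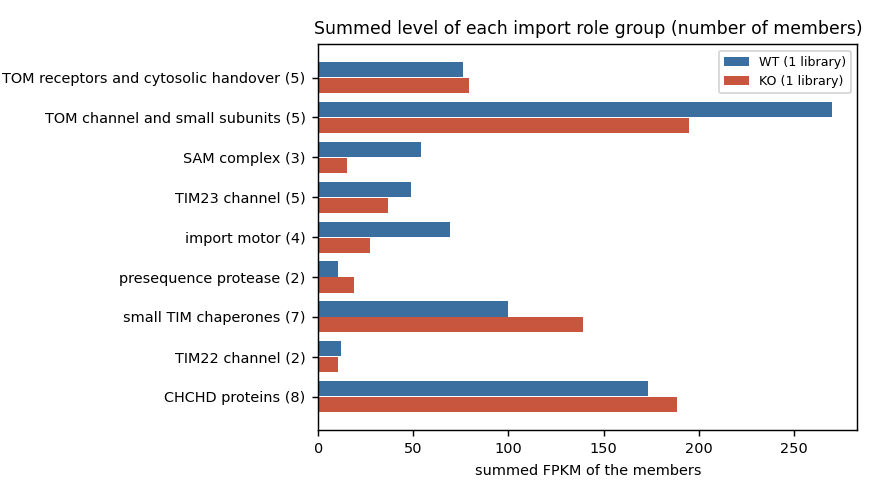
Summed FPKM of the members of each role group in the WT and the KO library, with the number of members in brackets. The SAM complex sum was 54.04 in WT and 14.9 in KO and the import motor sum was 69.03 and 27.02, while the TOM receptors summed to 76.01 in WT and 79.2 in KO.

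The small TIM chaperones work as hexamers of a pair of partners, Timm9 with Timm10 and Timm8a1 or Timm8b with Timm13. Timm8b had the largest change among import genes above 1 FPKM in both libraries after Chchd1, at 5.29 FPKM in WT against 60.8 in KO, which is a change of 3.30 from about 16.3 and 235 fragments. At a mean of 20 to 50 FPKM, where Timm8b lies, 5.26% of all genes were higher in KO. Its paralog Timm8a1 lay the other way, at 13.2 FPKM in WT against 7.77 in KO, as did the shared partner Timm13, at 23.7 and 10.8. The partners Timm9 and Timm10 lay on the same side. Timm10 was at 10.4 FPKM in WT against 29.4 in KO, a change of 1.41 within 3-fold, and Timm9 was listed at 0 in WT against 3.99 FPKM in KO, or 15.8 to 76.4 fragments by transcript length. Timm10b, which docks this hexamer onto the TIM22 complex, was at 47.4 FPKM in WT against 26.3 in KO. The median of the 6 genes was 0.36 and became -0.70 with a filter that leaves out Timm9. Timm8a2 was listed at 0 in both.

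Of the TIM22 complex, the channel Timm22 was listed at 0 in WT against 5.07 FPKM in KO, an estimated 28.2 fragments that range from 13.7 to 107 with the transcript length assumed. Timm29, which steadies the complex and contacts TOM, was at 12.1 FPKM in WT against 5.39 in KO, a change of -1.03. Agk, the lipid kinase that is a further subunit, was at 6.95 FPKM in WT against 3.03 in KO. With 1 value at 0, no direction is given for the group.

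The CHCHD proteins share a twin cysteine motif but differ in function. Chchd1, a protein of the mitochondrial ribosome, was lower in KO, at 43.8 FPKM in WT against 2.86 in KO, a change of -3.53 from about 153 and 12.5 fragments. At a mean of 20 to 50 FPKM, where Chchd1 lies, 6.43% of all genes were lower in KO. Chchd6, a MICOS subunit, was lower at 4.40 FPKM in WT against 0.744 in KO, a change of -1.63. With the trend over transcript length removed its change was -1.47, which is within 3-fold. The other MICOS subunit of this family, Chchd3, was at 14.7 and 15.95 FPKM. Chchd5 passed the threshold narrowly, with a change of 1.586 against 1.585, at 4.97 FPKM in WT against 16.9 in KO. Chchd2, which acts at respiratory complex IV and in the nucleus, was at 105.5 FPKM in WT against 152.0 in KO, and its relative Chchd10 was listed at 0 in both. Chchd7 and the import oxidoreductase Chchd4 were also listed at 0 in both, so the enzyme on which this branch of import depends could not be compared.

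Timmdc1, taken by its name but known as an assembly factor of respiratory complex I, was listed at 0 in WT against 11.0 FPKM in KO, an estimated 129 fragments. Without Timmdc1 and without the CHCHD genes other than Chchd4, 30 genes remained past the filter, with 5 higher, 6 lower and a median of -0.46, beside the 13.6% higher and 13.7% lower of all genes.

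The size of these differences was next read against the level of the genes, since low genes differed more between the libraries. At a mean of 1 to 5 FPKM, 54.1% of all genes were past 3-fold in either direction, and 4 of 5 import genes were. At 5 to 10 FPKM the share was 32.4%, and 5 of 9 import genes were past it. At 10 to 20 FPKM, which holds more import genes than any other band, it was 20.6%, with 10.2% higher and 10.4% lower, and 3 of 13 import genes were past it. At 20 to 50 FPKM it was 11.7%, and 2 of 6 import genes, Chchd1 and Timm8b, were past it. Above that level Tomm5 was past it and Tomm6 and Chchd2 were not, beside 4.95% of all genes at 50 to 100 FPKM and 2.14% at 100 FPKM or more, of which 0.668% were higher and 1.47% lower. Of the 30 import genes at 1 FPKM or more in both libraries, 4 were higher and 5 lower, beside 5.66% and 5.89% of all such genes. The count of import genes at 10 to 20 FPKM was therefore close to the background, and in each of the 4 other bands below 100 FPKM it was above it on few genes.

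**Figure D3:**
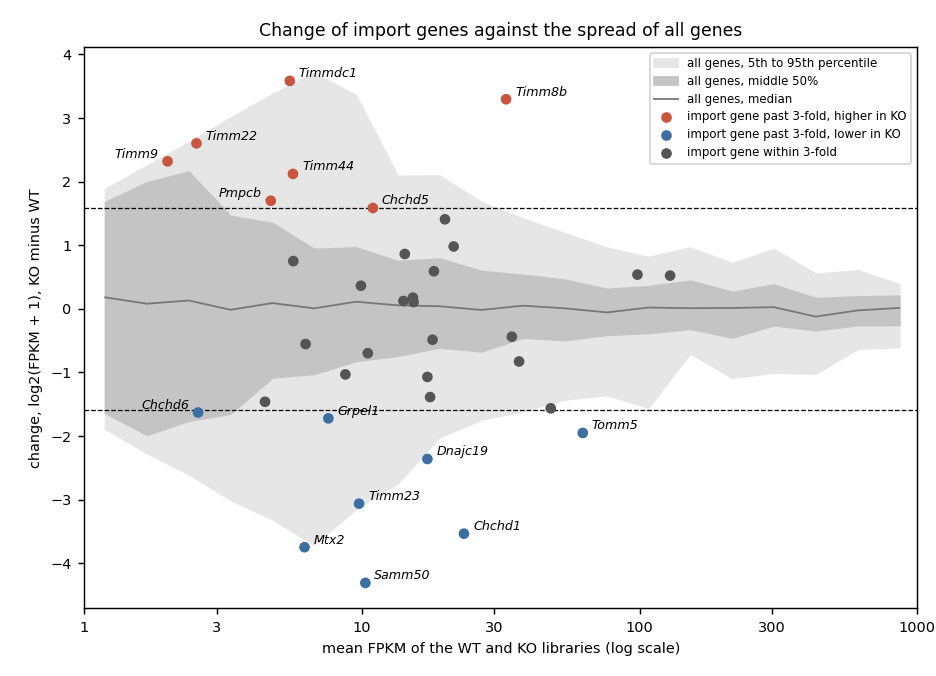
Change of the 36 import genes (points) against their mean FPKM on a log axis, over the spread of all genes past the filter (grey bands and line), with dashed lines at a 3-fold difference. Among the genes beyond the band that holds the 5th to 95th percentile of all genes were Timm8b at 3.30, Chchd1 at -3.53, Samm50 at -4.31 and Tomm5 at -1.95. Chchd6 at -1.63 and Pmpcb at 1.70 were among those inside it.

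**Figure D4:**
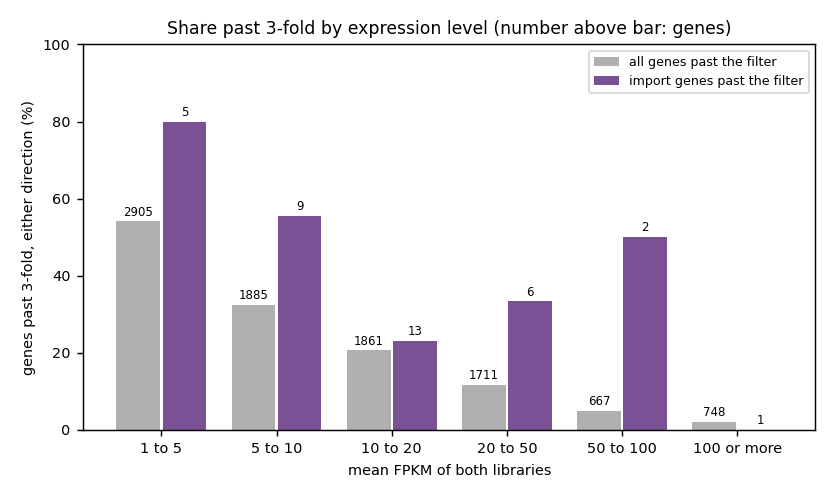
Percentage of genes past 3-fold in either direction by mean FPKM, for all genes and for import genes, with the number of genes above each bar. The share of all genes went from 54.1% at 1 to 5 FPKM to 2.14% at 100 FPKM or more, and the import bars rest on 1 to 13 genes each.

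Depth in fragments was also compared. Of the 36 import genes, 25 had an estimated 20 or more fragments in both libraries, and 4 of these were past 3-fold, 1 higher, Chchd5, and 3 lower, Dnajc19, Grpel1 and Tomm5. Of all 7117 genes at this limit, 4.79% were higher and 5.34% lower, or 10.1% together. The other 11 past 3-fold had fewer in at least 1 library, and 4 of them, Mtx2, Timm9, Timm22 and Timmdc1, were listed at 0 in 1 library with an estimated 20 or more in the other. By the shortest coding transcript of each gene, 24 genes had 20 or more in both and 4 of these were past 3-fold, while Timm9 and Timm22 lay under 20 in KO. Import transcripts were short, with a median length of coding transcripts of 1176.5 nt beside 2131 nt for all genes past the filter. Under 1000 nt, 3 import genes were higher and 3 lower of 14, with a median of 0.02 beside -0.07 for all genes of that length, of which 30.1% were past 3-fold in either direction. From 1000 to 2000 nt, 4 were higher and 2 lower of 13, with a median of 0.12 beside -0.03 and 31.7% of all such genes past 3-fold. From 2000 to 4000 nt, 0 were higher and 2 lower of 7, Mtx2 and Grpel1, with a median of -0.44 beside 0.11 and 26.9% of all such genes past 3-fold. Of the 2 longer genes Samm50 was lower and Tomm70a was within 3-fold, with a median of -2.43 beside 0.08 and 18.6% of all such genes past 3-fold.

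Several import genes cannot be counted cleanly, because they have near-identical copies or overlap another gene. A pseudogene with at least 97% identity over 100 nt or more exists for 7 members, Chchd2, Dnajc19, Timm23, Timm8a1, Tomm20, Tomm22 and Tomm5. Of these, Dnajc19, Timm23 with 4 such pseudogenes, and Tomm5 were lower in KO and none was higher, with a median of -0.70 over the 7, so these values are uncertain. The 11 genes past the filter with neither a copy nor an overlap held 4 higher and 2 lower genes, with a median of 0.11, beside 13.6% and 13.7% of all genes. On the other strand, 18 members overlap the exons of another gene, and the library protocol names no step that marks strand. The 16 of these past the filter held 2 higher and 3 lower genes, with a median of -0.52. Dnajc19 overlaps Fxr1, which was at 6.79 FPKM in WT against 11.2 in KO. Grpel1 overlaps Tada2b, at 5.00 and 2.02 FPKM, and Timm8b overlaps Nkapd1, at 2.96 and 6.10. Timm9 overlaps Tomm20l, another member. On the same strand, Samm50, Timm10b, Timm23 and Tomm6 each overlap the exons of another annotated gene, so the Samm50 change is uncertain in this way too. A stretch that meets the same limits of identity and length is also shared with a gene that is no pseudogene by 6 members, Chchd2, Pam16, Timm17a, Timm17b, Timm23 and Timmdc1, and for Timm17b with 20 genes.

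Other genes of the pathway that the name rule leaves out were examined for comparison. This list also holds some genes whose known role lies outside import itself, such as Apoo and Trap1. Of the 26 listed genes in the table, 23 passed the filter, with 3 higher and 2 lower in KO and a median of -0.06. In all, 21.7% of them were past 3-fold, beside 27.3% of all genes. Trap1, a mitochondrial Hsp90, was higher at 12.3 FPKM in WT against 55.3 in KO, a change of 2.08. Gfer, which reoxidises the Chchd4 product, was higher at 0.199 FPKM in WT against 7.87 in KO, and Aifm1, which binds that product, was listed at 0 in both. Apoo, a MICOS subunit, was listed at 0 in WT against 13.9 FPKM in KO, while Dnajc11, which joins SAM and MICOS, was at 4.22 FPKM in WT against a listed 0 in KO. Xpnpep3, a peptidase that trims imported proteins, was at 2.37 FPKM in WT against a listed 0 in KO. The matrix chaperonin Hspd1 was at 25.4 FPKM in WT against 15.02 in KO, and its co-chaperonin Hspe1 lay the other way at 45.01 and 102.5, both within 3-fold.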

How the data were processed

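Poly(A) RNA of sorted ATM was sequenced from 1 WT and 1 KO mouse sample. The authors deposited a single table of FPKM values per Ensembl gene. The submitters' processing notes name CASAVA 1.8.2, TopHat2 2.0.9, Cufflinks 2.2.1 and the build mm9. The annotation and any filter are not given in the sources used here. Its "mut" column was read as KO. FPKM is already divided by length and library size, so no count model was used.

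Of 20749 rows, 401 full repeats were dropped and 18 differing rows of a repeated identifier were summed. Symbols were found for 98.5% of the 20330 identifiers in GENCODE M21 (GRCm38), used for names, lengths and overlaps only. Genes that reached 1 FPKM in either library were compared as log2(FPKM + 1), which understates changes of low genes. No pseudogene met the name rule. Length was the median over coding transcripts and was found for 98.4% of compared genes. In genes with 1 annotated transcript, the smallest recurring FPKM times kilobases, 0.168 in WT and 0.134 in KO, was taken as 1 fragment. Fragment numbers are estimates and cover counting error only. On a 1000 nt transcript, 3 fragments give 0.504 FPKM for WT and 0.402 for KO. Copies were searched with BLAST 2.17.0. Python 3.11.15, NumPy 2.4.6 and pandas 2.3.3 were used, and the calculations were tested on simulated data.

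All members are named with their values. The gene lists by role and pathway and the rules were chosen with earlier results of these data known. Alternatives were pseudocounts of 0.1 and 0.01, no filter, a minimum of 1 FPKM required of WT and KO alike, a minimum mean of 5 FPKM, scaling to the same sum or upper quartile, removal of the length trend by a running median over 501 genes, the highest of differing rows, a 2-fold threshold, a 3-fold FPKM ratio, and leaving out members outside import or with a pseudogene copy.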

Additional observations from a re-analysis of the deposited data

How the results depend on the processing

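No paired analysis was possible because WT and KO hold a single sample each, and none could be left out. With no replicate spread, a value was taken to hold if it moved by at most 1.5-fold. Of 131 altered values for counts and medians, 112 held and 19 moved by more. A turn of sign was counted only for medians past 3-fold, those of SAM and Timmdc1, and the 0 found covers only these. The medians of TIM22, TIM23 and the small TIM genes, all within 3-fold, did change sign under some settings. Of 313 altered values for single genes, 298 held and 15 moved, all with pseudocounts of 0.1 or 0.01. Filters cannot change the value of a gene they keep, and taking the highest of differing rows changed no member. The number that held is therefore no measure of stability. The number of higher genes was 4 under a minimum of 1 FPKM in WT and KO alike (5.66% of all genes), 4 under a minimum mean of 5 FPKM (8.7%) and 4 for a 3-fold FPKM ratio (11.5%), since these take out genes that are listed at 0 or low in WT. The number of lower genes was 5 under the minimum of 1 FPKM in WT and KO alike (5.89%) and 13 with a 2-fold threshold, which 8 genes passed upward, beside 22.5% and 23.1% of all genes. It was 9 for the FPKM ratio (12.6%), 7 under the minimum mean of 5 FPKM (9.4%), and 10 with a pseudocount of 0.1 (18.0%) or 0.01 (18.2%), where 7 were higher (18.5% and 18.8%). It was 7 with the length trend removed (14.1%), where Chchd6 was at -1.47. The median over import genes had no stable sign. It was -0.48 for the log2 FPKM ratio, -0.46 without Timmdc1 and the CHCHD genes other than Chchd4, 0.00 with no filter and 0.11 without the members that have a pseudogene copy. With pseudocounts of 0.1 and 0.01 the SAM median was -6.80 and -7.75, the TIM22 median 2.27 and 3.91, and Timmdc1 6.79 and 10.10, since values at or near 0 set them. Under the minimum of 1 FPKM in WT and KO alike the SAM median was -0.48, which is Mtx1 alone, the TIM22 median was -1.03, which is Timm29 alone, and the small TIM median was -0.70. Under the minimum mean of 5 FPKM the values were -1.03 for TIM22 and -0.70 for the small TIM genes, while the TIM23 median was 0.12 and the presequence protease median was 0.36, which is Pmpca alone. The TIM23 median was 0.00 with no filter, since Timm21 enters at 0. Few fragments stand behind some low values, as for Samm50 in KO.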
